A study of Mus musculus with 2 samples.

Results

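T cell receptor variable (V) segments are the germline exons from which a developing T cell assembles its antigen receptor. All genes of the 2 matrices whose symbol begins with Trav, Trbv, Trgv or Trdv followed by a digit were taken, which gave 170 of 32285 genes: 128 Trav (alpha), 35 Trbv (beta), 1 Trgv (gamma) and 6 Trdv (delta) segments. All 170 were found by gene identifier in GENCODE M21, where 136 are annotated as V genes and 34 as V pseudogenes. No measured value entered this choice. Of the gamma V genes only Trgv2 carries a symbol of that form, and those named Tcrg-V are outside the rule.

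The study implanted KPC cells, a mouse pancreatic cancer line, orthotopically and profiled the tumours at day 21 by droplet-based 3′ single-cell RNA-seq. The control library came from mice labelled Porcnfl/fl (WT), and the knockout library from mice labelled Csf1r-Cre;Porcnfl/fl (KO). Both groups therefore carry floxed Porcn, the gene of the acyltransferase needed for WNT secretion, and the knockout adds Cre under the Csf1r promoter, which is active in macrophages and other myeloid cells. Controls were littermates, and strain, sex and age are not given in the sources used here. Tumours of 5 mice were pooled per genotype into 1 library each, so there is 1 sample per group, no test between genotypes was possible, and cells could not be assigned to a mouse or a clone.

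Each alpha and beta chain joins 1 V segment to a joining segment and a constant region, and the segments used by a population of T cells describe its receptor repertoire. Most T cells carry an alpha beta receptor with the coreceptor CD8 or CD4, which bind MHC class I and class II, and a smaller lineage carries gamma delta receptors. A tumour that drives a few T cell clones to expand can show an uneven use of V segments. Reads from a 3′ kit start near the end of the constant region and seldom reach the V exon, so that most T cells show no V segment at all.

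The segments whose use differed most between subsets or that were seen in most cells are shown here by the last 60 bases of their V exon, the end that joins, with the codon of the conserved cysteine in capitals, to let related segments be compared by eye.
Trbv17: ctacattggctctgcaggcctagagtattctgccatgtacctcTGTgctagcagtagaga
Trbv29: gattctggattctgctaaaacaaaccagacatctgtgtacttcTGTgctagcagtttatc
Trbv19: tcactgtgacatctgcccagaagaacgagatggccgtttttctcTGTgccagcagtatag
Trbv12-2: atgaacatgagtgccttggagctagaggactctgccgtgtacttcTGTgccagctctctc
Trbv13-2: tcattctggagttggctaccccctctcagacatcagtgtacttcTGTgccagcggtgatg
Trbv13-3: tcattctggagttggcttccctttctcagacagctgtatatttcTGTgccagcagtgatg
Trav1: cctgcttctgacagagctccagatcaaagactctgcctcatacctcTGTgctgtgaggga
Trav3-3: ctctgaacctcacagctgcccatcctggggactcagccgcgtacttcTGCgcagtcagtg
Trav3-4: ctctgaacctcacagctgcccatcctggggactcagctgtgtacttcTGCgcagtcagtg
Trgv2: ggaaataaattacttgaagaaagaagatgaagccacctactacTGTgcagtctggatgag

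These sequences come from GENCODE M21 transcripts on GRCm38. On the plus strand, Trbv17 lies at chr6:41163497-41163556, Trbv29 at chr6:41271822-41271881, Trbv19 at chr6:41178989-41179048 and Trbv12-2 at chr6:41119305-41119364. Trbv13-2 lies at chr6:41121773-41121832 and Trbv13-3 at chr6:41130526-41130585, and their 60 bases differ at 8 positions. Trav1 lies at chr14:52428817-52428876, Trav3-3 at chr14:53666447-53666506 and Trav3-4 at chr14:53777517-53777576, all on the plus strand. Trav3-3 and Trav3-4 differ at 2 of the 60 bases. Trgv2 lies on the minus strand at chr13:19336573-19336632.

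T cells were barcodes with at least 2 UMIs (unique molecular identifiers, counts of RNA molecules) of Cd3d, Cd3e, Cd3g and Trac together that also passed a filter of 500 or more genes and no more than 15% mitochondrial UMIs. Barcodes with at least 5 UMIs of the markers of 1 other lineage were left out (61 control and 293 knockout, of which 48 and 214 carried epithelial or tumour keratins and Epcam). The lineages were B, plasma, myeloid, epithelial or tumour, fibroblast and endothelial cells. Natural killer markers were not among them, so natural killer cells that met the T cell rule were kept. This left 162 T cells in the control library, 1.39% of 11664 cells that passed the filter, and 1547 in the knockout library, 14.3% of 10808. Their median depth was 3119.5 and 3542 UMIs. CD8 cells (a UMI of Cd8a or Cd8b1 and none of Cd4) numbered 108 and 687, CD4 cells (the reverse) 25 and 377, and cells with neither 27 and 450. The libraries shared 46 barcodes and no T cell barcode. Porcn itself was seen in 3 of 592 control and 3 of 674 knockout myeloid cells, and whether the 3′ reads fall in the deleted part is not known, so it does not check the genotype labels. The samples are labelled as tumour-infiltrating cells, but 7931 of 11220 control and 5166 of 8526 knockout cells without a T cell marker UMI carried epithelial or tumour markers alone.

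The share of T cells with a detected V segment differed by less than counting error between the libraries. It was 41.4% in the control library (67 of 162 cells, 95% exact binomial interval 33.7 to 49.4), and in the knockout library 630 of 1547 T cells (40.7%, 38.3 to 43.2) held one. Here and below intervals are Clopper-Pearson intervals for shares and exact conditional intervals for ratios, and they cover counting error only. With each cell thinned to 1000 UMIs the expected shares were 14.8% and 13.9%. These cells held 100 and 1020 V segment UMIs in all. Per 100 UMIs of the constant gene there were 9.94 and 10.2 Trav UMIs, and per 100 UMIs of Trbc1 and Trbc2 there were 5.07 and 3.56 Trbv UMIs. Trbc1 and Trbc2 encode the constant part of the beta chain and Trac that of the alpha chain.

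By locus, beta segments were seen in 23.5% of control T cells (17.2 to 30.7), against 20.7% (18.8 to 22.9) in the knockout library. For alpha segments the shares were 18.5% (12.9 to 25.4) and 21.1% (19.1 to 23.3), and for Trgv2 6.79% (3.44 to 11.8) and 5.88% (4.76 to 7.17). Trdv segments were found in 0 of 162 control cells, a count that allows a share of up to 1.85%, and in 1.42% (0.893 to 2.15) of knockout cells. Within each locus the intervals of the 2 libraries overlapped. Within the knockout library, any V segment was found in 49.6% (45.8 to 53.4) of CD8 cells, 38.2% (33.3 to 43.3) of CD4 cells and 29.1% (25 to 33.5) of cells with neither coreceptor. Median depths were 4135, 3457 and 2822 UMIs in these subsets, and thinned to 1000 UMIs the shares were 16.4%, 11.7% and 12.1%.

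**Figure D1:**
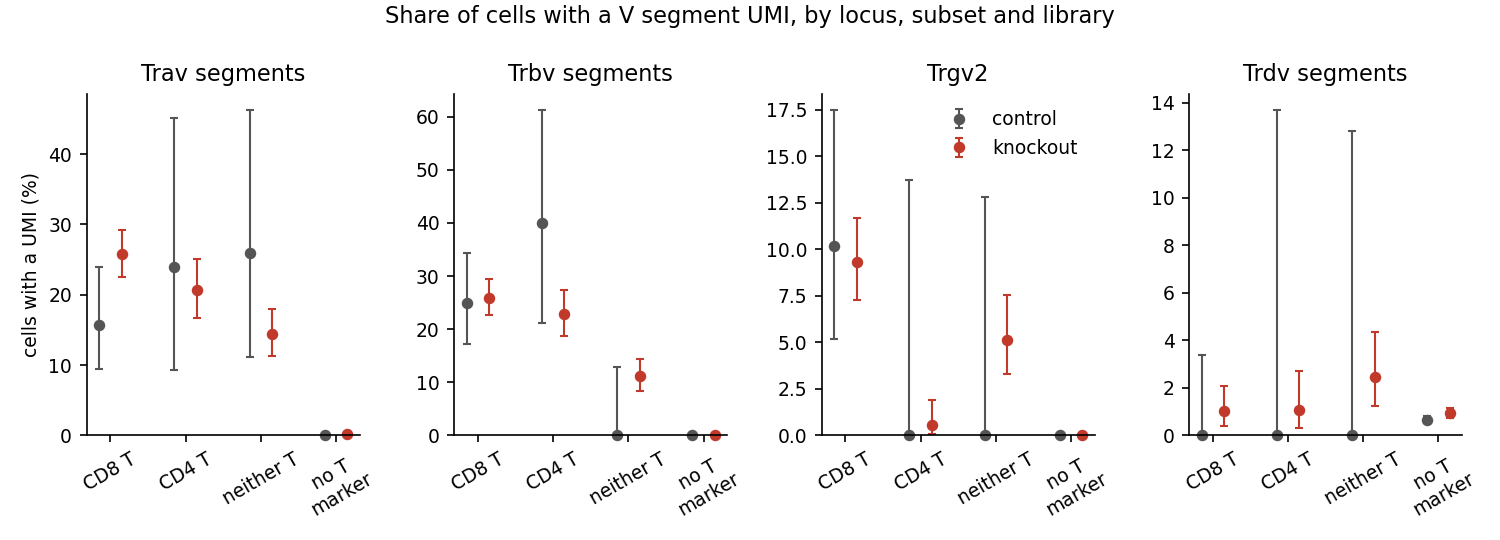
Share of cells (%, vertical axis, of a different range in each panel) with a UMI of each V locus in CD8, CD4 and neither-coreceptor T cells and in cells without any T cell marker UMI, in the control and knockout libraries; points are shares and bars are 95% Clopper-Pearson intervals. Trav, Trbv and Trgv2 were near 0 outside T cells, while Trdv segments were found in 0.642% and 0.938% of those cells.

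In cells with no UMI of Cd3d, Cd3e, Cd3g or Trac, alpha, beta and gamma segments were nearly absent. These cells were not free of receptor transcripts. Trbc2 was seen in 0.419% of such control and 1.89% of such knockout cells, and Trdc, the delta constant gene, in 0.909% and 1.68%. Trav UMIs were found in 6 of 11220 control cells (0.0535%) and 12 of 8526 knockout cells (0.141%), and Trbv UMIs in 3 (0.0267%) and 8 (0.0938%). Trgv2 was found in 2 cells of each library. These cells were deeper than T cells, with medians of 12249 and 11718.5 UMIs. In myeloid cells 0 of 592 control and 2 of 674 knockout cells held any V segment. The alpha, beta and gamma shares of T cells were therefore far above the level in other cells. Trdv4, described with the delta segments, was an exception, and so was Trdv2-2 in cells with natural killer markers.

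Of the 170 segments, 89 had a UMI in at least 1 T cell and 81 had none. The control library showed 35 of them and the knockout library 89, and all 35 were also among the 89. Seen in either library were 61 of 128 Trav, 22 of 35 Trbv, Trgv2 and 5 of 6 Trdv segments. Of the 34 annotated pseudogenes 4 were seen (Trav22, Trbv24, Trbv28 and Trdv3), each in 1 or 2 knockout cells. At equal numbers of observed segments the libraries were close for Trbv: 38 random draws from the knockout library are expected to show 15 Trbv segments, and from the control library 15.7. For Trav, 20 draws are expected to show 12.7 segments in the control and 15.6 in the knockout library.

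Trbv use was spread over many segments in both libraries, and none led by a wide margin. A segment's share is the percent of cells with a UMI of the locus that held that segment. In the control library 38 cells held a Trbv UMI, and Trbv3 and Trbv19 led with 5 cells each (13.2%, 4.41 to 28.1). In the knockout library 321 cells held a Trbv UMI, and Trbv12-2 led with 38 cells (11.8%, 8.51 to 15.9), followed by Trbv19 with 30 (9.35%), Trbv17 with 28 (8.72%), Trbv3 with 27 (8.41%) and Trbv13-2 with 26 (8.10%). The 5 leading segments made up 51.2% of the Trbv observations in the control and 44.3% in the knockout library. The chance that 2 different observations were of the same segment was 5.61% in the control and 6.67% in the knockout library, which corresponds to 17.8 and 15 equally used segments.

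For each Trbv segment the intervals of its share of cells overlapped between the libraries. The segments with the largest shift upward in the knockout library were Trbv17, with 1 of 38 cells in the control library (2.63%, 0.0666 to 13.8) beside 28 of 321 in the knockout library (8.72%, 5.87 to 12.4), Trbv29 (5.26% against 8.10%) and Trbv13-2 (also 5.26% against 8.10%). The ratio of shares for Trbv17 was 3.31 (0.548 to 136). The largest shifts downward were in Trbv16 (4 cells, 10.5%, against 14 cells, 4.36%), Trbv20 (7.89% against 2.80%) and Trbv3 (13.2% against 8.41%). The control shares rest on 38 informative cells, and their intervals are wide. The libraries also differed in make-up: CD8 cells were 66.7% of control and 44.4% of knockout T cells. CD4 cells were 15.4% and 24.4%, and cells with neither coreceptor 16.7% and 29.1%. Comparisons of all T cells between the libraries, here and elsewhere, were not adjusted for this make-up. Counted in UMIs over all T cells, Trbv16 had a ratio whose interval lies below 1, given with the comparison over all genes.

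**Figure D2:**
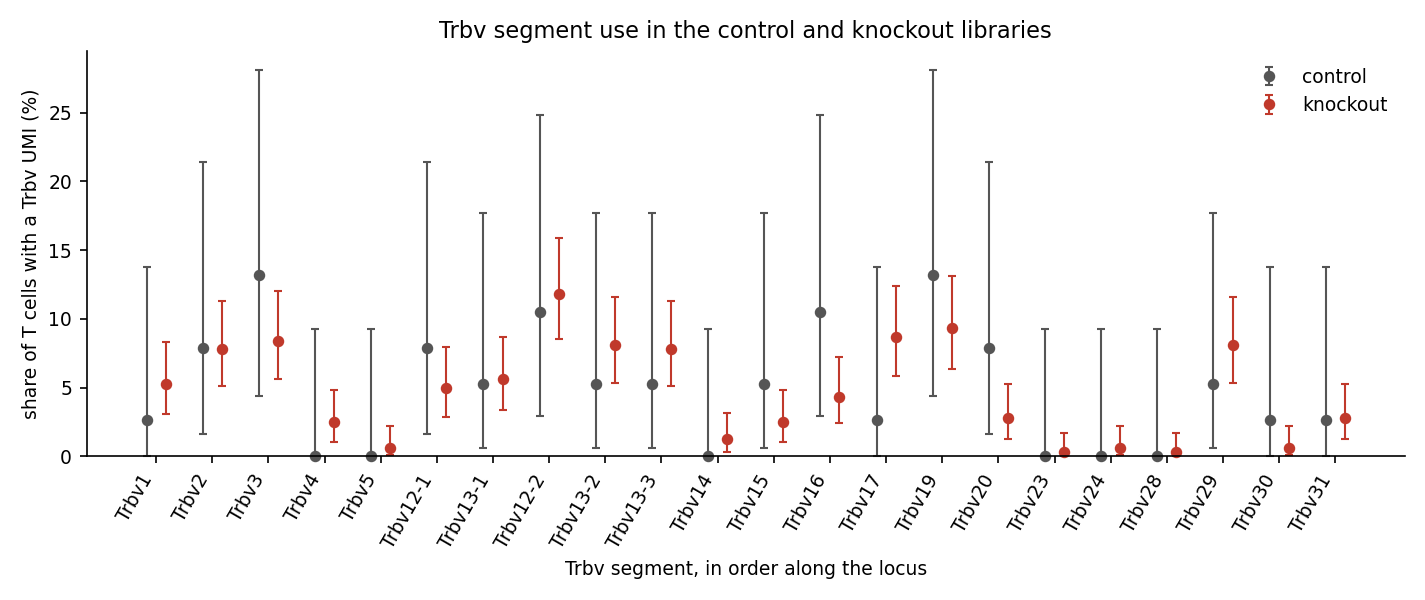
Share (%) of T cells with a Trbv UMI that held each of the 22 Trbv segments seen, in locus order, for the control (38 cells) and knockout (321 cells) libraries, with 95% Clopper-Pearson intervals. Control intervals are wide, reaching from 4.41% to 28.1% for Trbv19, and overlap the knockout intervals at every segment drawn.

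Within the knockout library, several Trbv segments were more frequent in CD8 than in CD4 cells. Trbv17 was found in 26 of 178 CD8 cells with a Trbv UMI (14.6%, 9.77 to 20.7) and in 1 of 86 such CD4 cells (1.16%, 0.0294 to 6.31), a ratio of 12.6 (2.06 to 515). Trbv29 was found in 23 CD8 cells (12.9%, 8.37 to 18.8) and 3 CD4 cells (3.49%, 0.725 to 9.86), a ratio of 3.70 (1.12 to 19.3). Trbv13-3 was found in 20 CD8 cells (11.2%) and 3 CD4 cells (3.49%), a ratio of 3.22 (0.955 to 16.9), whose interval includes 1. Trbv12-1 stood at 14 CD8 cells and 1 CD4 cell (7.87% against 1.16%). Both coreceptor subsets came from the same library and the same 5 pooled mice, but cells of 1 expanded clone share a segment and are not independent.

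Other Trbv segments leaned to CD4 cells. Trbv13-2 was found in 14 of 86 CD4 cells (16.3%, 9.20 to 25.8) and 7 of 178 CD8 cells (3.93%, 1.60 to 7.93), a CD8 to CD4 ratio of 0.242 (0.0825 to 0.640). Trbv19 was found in 14 CD4 cells (16.3%) and 9 CD8 cells (5.06%, 2.34 to 9.38), a ratio of 0.311 (0.119 to 0.770). Trbv13-1 was found in 8 CD4 cells (9.30%) and 7 CD8 cells (3.93%), a ratio of 0.423 (0.131 to 1.33). Trbv31, picked out after its values were seen, was found in 7 CD4 cells (8.14%) and 2 CD8 cells (1.12%). Trbv13-2 and Trbv13-3, which differ at 8 of the 60 bases printed above, therefore leaned to opposite subsets. When the 3 Trbv13 segments were merged their shares were 19.1% in CD8 and 29.1% in CD4 cells, with a ratio of 0.657 (0.381 to 1.15).

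The leaning of Trbv17 and Trbv19 was seen under each selection of cells that was tried. Both segments were picked after their values were seen, and the selections share most of their cells, so this is no independent support. Over those selections the Trbv17 share ranged from 14.6% to 16.0% in CD8 cells and from 0% to 1.67% in CD4 cells. The Trbv19 share ranged from 4.44% to 5.45% in CD8 cells and from 12.8% to 16.7% in CD4 cells. In the control library Trbv17 was found in 1 CD8 cell and no CD4 cell, and Trbv19 in 4 CD8 cells and 1 CD4 cell, so the small control subsets (27 CD8 and 10 CD4 cells with a Trbv UMI) could not show whether this leaning held there. Trbv use was about as even in knockout CD8 as in CD4 cells, at 12.3 and 12.4 equally used segments.

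**Figure D3:**
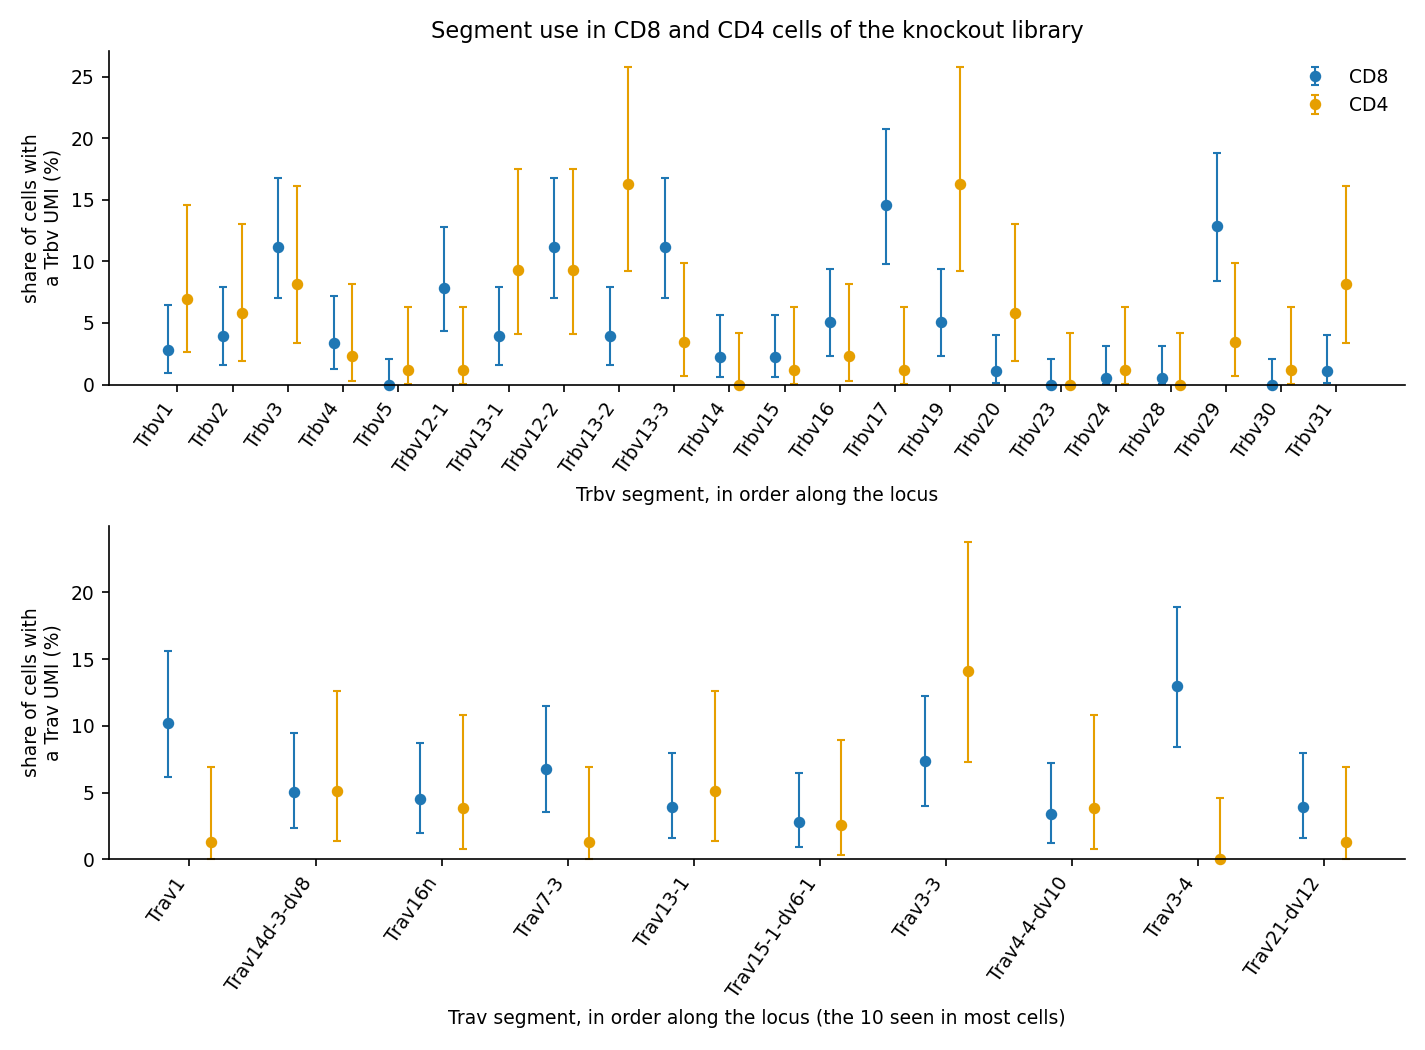
Segment shares (%) in CD8 and CD4 cells of the knockout library for the 22 Trbv segments seen (upper panel, of 178 CD8 and 86 CD4 cells with a Trbv UMI) and the 10 Trav segments seen in most cells (lower panel, of 177 and 78 cells with a Trav UMI), with 95% Clopper-Pearson intervals. Trbv17 (14.6% against 1.16%) and Trav3-4 (13.0% against 0 of 78) stood higher in CD8 cells, Trbv13-2 (3.93% against 16.3%) higher in CD4 cells.

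Segment use was also split by Pdcd1, the gene of the inhibitory receptor PD-1 of activated and exhausted T cells, and by Foxp3, the transcription factor of regulatory T cells. Trbv17 led the Pdcd1-positive CD8 cells of the knockout library with 18 of 109 cells (16.5%, 10.1 to 24.8), and was found in 8 of 69 Pdcd1-negative cells (11.6%, 5.14 to 21.6). Trbv12-2 led the Pdcd1-negative cells with 14 of 69 (20.3%, 11.6 to 31.7), against 6 of 109 (5.50%, 2.05 to 11.6) of the Pdcd1-positive cells. Trbv13-2 led the Foxp3-positive CD4 cells with 6 of 22 (27.3%, 10.7 to 50.2), and was found in 8 of 64 Foxp3-negative cells (12.5%, 5.55 to 23.2). Trbv19 was found in 12 of 64 Foxp3-negative cells (18.8%, 10.1 to 30.5) and 2 of 22 Foxp3-positive cells (9.09%, 1.12 to 29.2). Apart from Trbv12-2, whose intervals only touched, the intervals of these pairs overlapped. A cell without a Pdcd1 or Foxp3 UMI may still express the gene.

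Trav UMIs were spread over many segments in the knockout library, as counted among the segments whose reads could be assigned. There 327 cells held a Trav UMI over 61 segments, the chance that 2 observations matched was 2.96%, and this corresponds to 33.8 equally used segments. Trav3-3 led with 29 cells (8.87%, 6.02 to 12.5), followed by Trav3-4 with 23 (7.03%), Trav1 with 19 (5.81%), Trav7-3 with 17 (5.20%) and Trav14d-3-dv8 with 16 (4.89%). In the control library 30 cells held a Trav UMI over 18 segments, with Trav3-3 in 6 (20%, 7.71 to 38.6), Trav16n in 5 (16.7%, 5.64 to 34.7) and Trav3-4 in 4 (13.3%). The control cells corresponded to 15.1 equally used segments.

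Between the libraries, Trav16n had the largest difference downward, with 4.28% of knockout cells (2.36 to 7.08) beside 16.7% of control cells. The ratio was 0.257 (0.0874 to 0.911) and rests on 5 control cells, all of them CD8 cells. Trav3-3 stood at 20% and 8.87%, a ratio of 0.443 (0.181 to 1.31), and Trav3-4 at 13.3% and 7.03%, a ratio of 0.528 (0.180 to 2.10). Trav1, Trav7-3 and Trav15-1-dv6-1 were found in 0 of 30 control cells and in 5.81%, 5.20% and 3.36% of knockout cells. A count of 0 in 30 cells allows a share of up to 10.0%, which lies above each of these knockout shares, so their absence from the control library was not detectable as a difference. Segments with dv in their symbol also carry a delta name and were counted here as Trav. Of the 11 knockout cells with Trav15-1-dv6-1, 4 held Trdc, the delta constant gene (36.4%, 10.9 to 69.2), beside 3.1% of all knockout T cells. Its UMIs are therefore not read as alpha chain use alone.

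Trav3-4 and Trav1 were the alpha segments that leaned most to CD8 cells in the knockout library. Trav3-4 was found in 23 of 177 CD8 cells with a Trav UMI (13.0%, 8.42 to 18.9) and 0 of 78 CD4 cells, a count that allows a share of up to 3.85%. Its CD8 share was 3.38-fold this limit, a value that leaves out the counting error of the CD8 share. All 23 knockout cells with Trav3-4 were CD8 cells, as were 3 of the 4 control cells, the fourth having neither coreceptor. Trav1, the segment farthest from the constant gene, was found in 18 CD8 cells (10.2%, 6.14 to 15.6) and 1 CD4 cell (1.28%, 0.0325 to 6.94), a ratio of 7.93 (1.25 to 330). Of the 18 Trav1 CD8 cells 13 held a Pdcd1 UMI (72.2%, 46.5 to 90.3), and of the 23 Trav3-4 CD8 cells 16 did (69.6%, 47.1 to 86.8), beside 54.9% (51.1 to 58.6) of all knockout CD8 cells. These intervals overlapped. In beta constant genes, 18 of the 23 Trav3-4 cells held Trbc2 without Trbc1, 5 held both and 0 Trbc1 alone, while of all 687 knockout CD8 cells 320 held Trbc2 alone, 286 both and 33 Trbc1 alone.

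Trav7-3 leaned to CD8 cells with a ratio whose interval includes 1 (12 cells, 6.78%, against 1 cell, 1.28%, ratio 5.29, 0.782 to 226). Trav3-3 had 13 CD8 cells (7.34%) and 11 CD4 cells (14.1%, 7.26 to 23.8), a ratio of 0.521 (0.215 to 1.28), so that it and Trav3-4, 2 bases apart in the sequence printed above, had ratios on opposite sides of 1. When segments were merged into subgroups, Trav6 (15 members) had 14 CD8 cells (7.91%) and 15 CD4 cells (19.2%), a ratio of 0.411 (0.184 to 0.914). Trav3 (8 members) had 41 and 13 cells (23.2% and 16.7%), a ratio of 1.39 (0.730 to 2.83). Both subgroups were picked out after their values were seen. In all, CD8 Trav observations corresponded to 24.1 and CD4 observations to 31.5 equally used segments.

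The segments nearest to Trac had a larger share in CD8 than in CD4 cells, mostly through Trav3-4. The Trav segments lie between 243.4 and 1792.6 kb from Trac. The 15 segments within 500 kb of it made up 38 of the CD8 Trav observations (19.7%, 14.3 to 26.0) and 4 of the CD4 observations (4.82%, 1.33 to 11.9). Trav3-4, 443.6 kb from Trac, gave 23 of those 38. Between 500 and 1000 kb the CD8 and CD4 shares were 46.6% and 63.9%, and between 1000 and 1500 kb 16.6% and 21.7%. Beyond 1500 kb they were 17.1% and 9.64%. In each of these stretches the CD8 and CD4 intervals overlapped. Median distances over all observations were 777.3 kb in CD8 and 729.4 kb in CD4 cells, so the whole distributions did not move in the direction of the nearest segments.

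**Figure D4:**
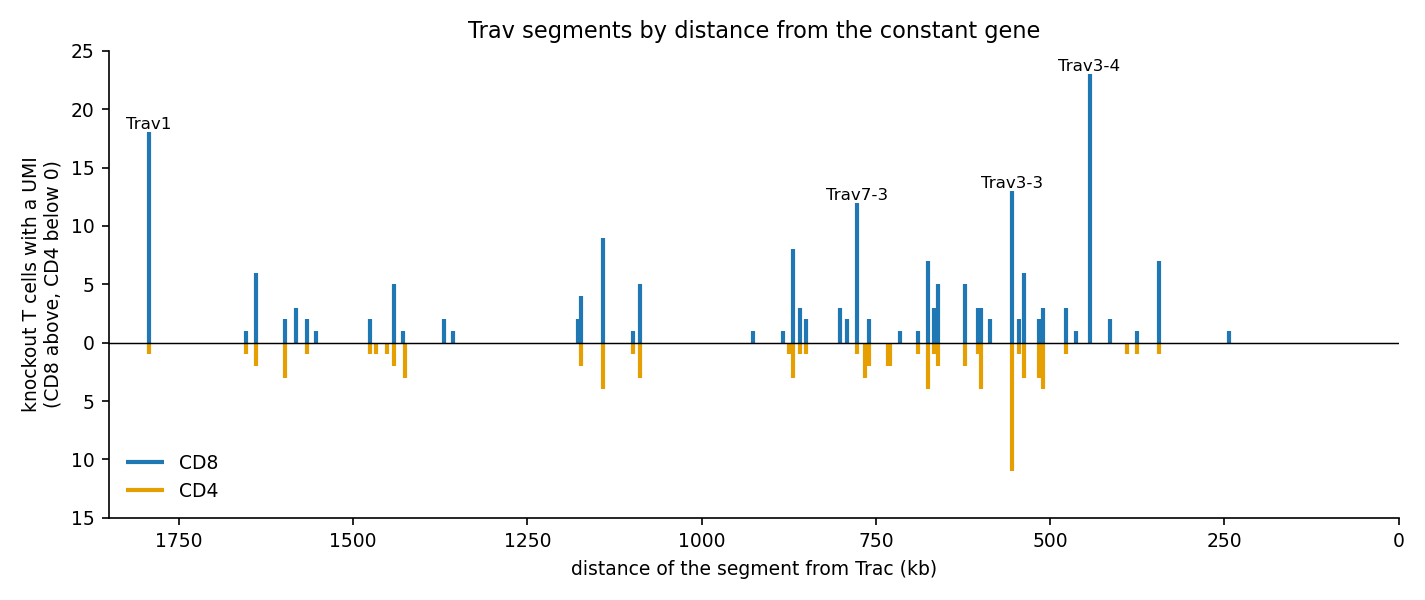
Number of knockout T cells with a UMI of each Trav segment (vertical axis, CD8 cells above and CD4 cells below 0) against the distance of the segment from Trac in kb (horizontal axis, Trac at the right). Trav3-4 (23 CD8 cells, 0 CD4) and Trav1 (18 CD8, 1 CD4) stand out as CD8-only or nearly so, and Trav3-3 has bars on both sides.

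Trav segments without unique sequence were hardly seen. Many Trav segments are copies from duplications of the central part of the locus, marked d or n in their names. How reads that match several genes were counted is not given in the sources used here. Of the 42 Trav segments with no 50-base window of their transcript unique among annotated transcripts, 1 was seen. Of the 17 with up to 25% unique windows 8 were seen, of the 43 with 25 to 75% 32, and of the 26 with more than 75% 20. The mean number of T cells per segment was 0.0238, 1.18, 5.42 and 5.12 in these classes, so it did not rise further above 25%. The d copies were seen in 13 of 39 cases, the n copies in 8 of 34 and the other Trav segments in 40 of 55. Levels of different Trav segments are therefore not comparable with each other, and the number of segments in use cannot be read from the number seen.

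**Figure D5:**
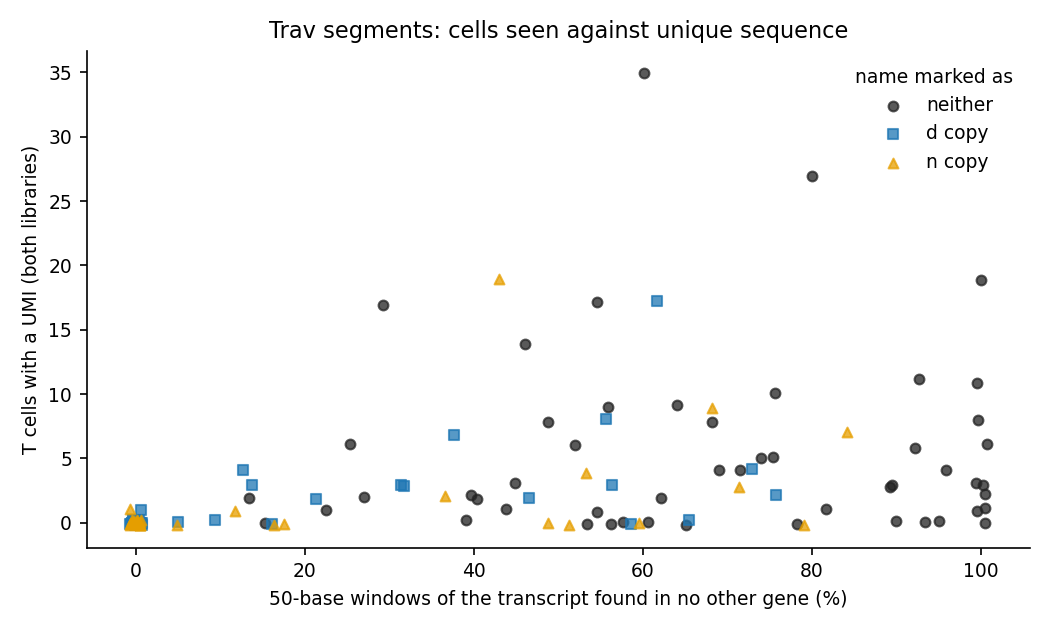
Number of T cells of both libraries with a UMI of each of the 128 Trav segments (vertical axis) against the percent of 50-base windows of its transcript found in no other gene (horizontal axis), by whether the name is marked d, n or neither, with a small random offset of each point on both axes. Of the 42 segments at 0% unique windows 1 was seen, and the segment at the top is Trav3-3 with 35 cells and 60% unique windows.

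Trbv sequences are mostly unique, with more than 75% unique windows in 32 of 35 segments, of which 20 were seen. Trbv12-1 and Trbv12-2, 4 of whose 60 end bases differ, and the 3 Trbv13 segments are close relatives, yet at least 98.8% of their windows were unique. A T cell rarely showed more than 1 segment of a locus: 5.26% of control and 4.67% of knockout cells with a Trbv UMI held at least 2 Trbv segments, and 10.0% and 8.26% of cells with a Trav UMI at least 2 Trav segments. The most frequent pair in 1 cell was Trbv12-2 with Trbv13-2, in 1 control and 3 knockout cells.

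Trgv2, a gamma segment, was found mainly in CD8 cells. Most cells that held it also had beta chain transcripts, as did most T cells. Among CD8 cells 11 of 108 held it in the control library (10.2%, 5.20 to 17.5) and 64 of 687 in the knockout library (9.32%, 7.25 to 11.7). In CD4 cells it was found in 0 of 25 control cells, which allows up to 12.0%, and 2 of 377 knockout cells (0.531%, 0.0643 to 1.90), at median depths of 3631 and 3457 UMIs. Thinned to 1000 UMIs, the knockout shares were 3.11% in CD8 and 0.0923% in CD4 cells. Knockout cells with neither coreceptor stood between, at 5.11% (3.27 to 7.57). Trgv2 was the member with the most UMIs, 18 in the control and 145 in the knockout library, or 28.1 and 21.8 CPM (counts per 1000000 UMIs).

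Of the 91 knockout cells with Trgv2, 88 held a UMI of Trbc1 or Trbc2, 76 of Trac and 14 of Trdc, the delta constant gene, and 3 a UMI of Zbtb16, a transcription factor of innate-like T cells. As shares these were 96.7% for Trbc1 or Trbc2, 83.5% for Trac and 15.4% for Trdc. Among all 1547 knockout T cells they were 91.4%, 79.1% and 3.1%. Of the 48 knockout T cells with Trdc, 43 held Trbc1 or Trbc2, so beta constant UMIs do not set Trgv2 cells apart. Tcrg-C2, the gamma constant gene to which Trgv2 is known to join, had a UMI in 39 of the 91 Trgv2 cells, beside 61 of all 1547 knockout T cells. In the control library 7 of the 11 Trgv2 cells and 13 of all 162 T cells held Tcrg-C2, and all 11 held Trbc1 or Trbc2 and none Trdc. Among CD8 cells Trgv2 was found in 10 of 64 Pdcd1-positive (15.6%, 7.76 to 26.9) and 1 of 44 Pdcd1-negative control cells (2.27%, 0.0575 to 12.0), and in 12.5% (9.31 to 16.2) and 5.48% (3.23 to 8.64) of knockout cells. Pdcd1-positive knockout cells were deeper (4888 against 3475 UMIs), and thinned to 1000 UMIs the shares were 3.85% and 2.21%. The gamma V genes outside the rule were each found in 1 to 11 knockout T cells and no control T cell, Tcrg-V1 in 11 and Tcrg-V7 in 9.

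Delta segments were sparse in T cells, and Trdv4 and Trdv2-2 were also seen outside them. Trdv2-2 was found in 13 knockout T cells (0.840%, 0.448 to 1.43) and Trdv4 in 5 (0.323%, 0.105 to 0.753). All 13 Trdv2-2 cells held Trbc1 or Trbc2, and 2 held Trdc. Trdv2-2 was found in 9 of 8526 knockout cells without T cell markers (0.106%, 0.0483 to 0.2), 7 of which were among 104 cells with natural killer cell markers. Trdv4 was found in 72 of those 8526 cells (0.844%, 0.661 to 1.06) and in 68 of 11220 control cells (0.606%, 0.471 to 0.768). Most of these had epithelial or tumour markers, 53 of 7931 in the control and 47 of 5166 in the knockout library, and 0 of 592 and 0 of 674 myeloid cells held it. Myeloid cells were shallower, with medians of 2429 and 4016 UMIs against 12636 and 14449.5 in cells with epithelial or tumour markers. No contrast between these cell types is therefore read from the counts. In knockout T cells Trdv4 stood at 1.50 CPM and in all knockout cells without T cell markers, which were deeper, at 0.717 CPM. Its share of cells went the other way, so no order of these groups is read from it. Cells with natural killer markers held Trdv4 in 3 of 18 control and 9 of 104 knockout cells, at 50.5 and 36.7 CPM. Trdv2-2 stood at 22.6 CPM in these knockout cells and at 2.25 CPM in knockout T cells. Both segments were therefore higher in knockout cells with natural killer markers than in knockout T cells, on 13 and 8 UMIs. The T cell rule counts Trac and so favours alpha beta cells.

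The alpha segments of invariant T cells were looked for as well. Trav11 and Trav11d, used by invariant natural killer T cells together with Traj18, were found in 0 of 162 control and 0 of 1547 knockout T cells. They share their sequence to the extent that neither has a unique 50-base window, so a count of 0 is no measure of their use. Traj18 had a UMI in 4 control and 48 knockout T cells, none of which held Zbtb16. Trav1, which mucosal-associated invariant T cells join to Traj33, was found in 19 knockout T cells, none of them with Zbtb16, and the 6 knockout T cells with Traj33 held no Trav UMI. Zbtb16 had a UMI in only 2 of all 162 control and 25 of all 1547 knockout T cells. Its absence from so few cells therefore does not tell whether they are invariant T cells.

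Cells with both an alpha and a beta segment were too few for a view of clones. Both were found in 8 of 162 control T cells (4.94%) and 81 of 1547 knockout T cells (5.24%). The 10 pairs of the control library were each seen in 1 cell. Of the 82 pairs of the knockout library 75 were seen in 1 cell and 7 in 2 or more. Trav3-4 with Trbv17 was seen in 5 cells, all CD8, out of 7 Trav3-4 cells with any Trbv UMI and 9 Trbv17 cells with any Trav UMI. In the control library 1 CD8 cell held the same pair, out of 2 Trav3-4 cells with a Trbv UMI and 1 Trbv17 cell with a Trav UMI. Trav3-3 with Trbv12-2 was seen in 3 cells, and the other 5 recurring pairs in 2 cells each. Pairs were singled out after their counts were seen, and joining regions that would tell clones apart are not read by these counts.

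V segments were also set beside all genes, as UMIs summed over cells, scaled to CPM and compared as log2 ratios with 1 UMI added to each group, over genes with at least 20 UMIs in the groups compared. Between knockout and control T cells, 4.67% of 11219 genes were higher by at least 2-fold and 5.76% lower. Of the 18 V segments that passed this minimum, 2 (Trav1 and Trav7-3) were past the fold upward and 5 (Trbv3, Trbv12-1, Trbv16, Trav16n and Trav3-3) downward. The 2 upward had no UMI in the control library, and against a floor of 3 UMIs there their log2 ratios were -0.50 and -0.64, so no fold is given for them. Of the 5 downward, Trbv3 and Trav3-3 (each 6 control and 33 knockout UMIs, ratio 0.529, 0.219 to 1.55) and Trbv12-1 (3 and 17 UMIs, ratio 0.545, 0.158 to 2.90) were not past 2-fold without the added UMI, which weighs more in the smaller control library. With the addition made in proportion to library size, an alternative chosen after seeing the data, 8.42% of all genes were higher and 3.58% lower. Of the V segments 3 were then higher (Trbv17, Trav1 and Trav7-3) and 2 lower (Trbv16 and Trav16n). Trbv16 had the lowest value, at 7 control and 16 knockout UMIs, 10.9 and 2.40 CPM (log2 -2.29, ratio 0.220, 0.0856 to 0.632). These UMIs lay in 4 control and 14 knockout cells, and intervals of UMI ratios take UMIs of 1 cell as independent. By cells its intervals overlapped (2.94 to 24.8% and 2.40 to 7.21% of cells with a Trbv UMI). Trav16n had 5 control and 16 knockout UMIs (ratio 0.308, 0.108 to 1.07). The median of the 18 was -0.37 and that of all genes -0.06, or -0.17 and 0.03 with the proportional addition. With cells that carry markers of another lineage kept, 23 V segments passed the minimum and their median was 0.84. The direction of the median therefore rests on that choice, which also changes the segments counted.

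Between CD8 and CD4 cells of the knockout library, 3.73% of 10397 genes were higher in CD8 cells by at least 2-fold and 5.52% lower. Of 13 V segments that passed the minimum, 6 were higher (Trbv13-3, Trbv17, Trbv29, Trgv2, Trav1 and Trav3-4) and 3 lower (Trbv13-1, Trbv13-2 and Trbv19), with a median log2 ratio of 0.37 against -0.09 for all genes. A segment can pass the minimum through the subset where it is high alone, so this count gives no support of its own. Trgv2 had 106 UMIs in CD8 and 2 in CD4 cells, 32.1 and 1.17 CPM (ratio 27.5, 7.42 to 230). Trbv17 had 34 and 1 UMIs, 10.3 and 0.584 CPM (ratio 17.6, 2.96 to 717). Trav3-4 had 41 and 0 UMIs, and the interval of its ratio starts at 5.51. Against a floor of 3 UMIs its log2 ratio was 2.83, without counting error.

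Other genes of the receptor were read in the same way. Among the 4 CD3 chains, which carry the receptor's signal, none was past 2-fold between the libraries, and Cd247, the zeta chain, was lower in CD8 than CD4 cells (265 against 553 CPM). Among 8 proximal signalling genes, such as Lck and Zap70, the first kinases of the pathway, none was past 2-fold in either comparison. Of the 7 constant genes, Trdc was higher in the knockout library (29.8 against 9.37 CPM in the control, ratio 3.18, 1.43 to 8.76), with 6 UMIs in 3 control cells and 198 in 48 knockout cells, and Tcrg-C2 was lower (13.7 against 39.0 CPM, ratio 0.350, 0.223 to 0.569). By cells Trdc was seen in 1.85% (0.384 to 5.32) of control and 3.1% (2.30 to 4.09) of knockout T cells, and these intervals overlap. Trdc was also seen in 0.983% of control and 1.39% of knockout cells with epithelial or tumour markers and no T cell marker UMI. All 3 control T cells with Trdc held Klrb1c, a natural killer marker, as did 4 of the 48 knockout ones. The Tcrg-C2 UMIs were 25 in 13 control T cells (8.02%) and 91 in 61 knockout T cells (3.94%). The interval of its ratio takes UMIs of 1 cell as independent, so it is too narrow for a difference in cells. Among CD8 cells alone, Tcrg-C2 stood at 54.5 CPM in the control and 21.8 CPM in the knockout library. Tcrg-C1 and Tcrg-C2 were higher in CD8 than in CD4 knockout cells, Tcrg-C2 at 21.8 against 0.584 CPM, which rests on 1 UMI in CD4 cells. The assembly genes Rag1, Rag2, Dntt and Ptcra had no UMI in any T cell. Of 10 innate-like genes 4 had enough UMIs between the libraries, and the ratios of Zbtb16 (6 control and 35 knockout UMIs, 0.561, 0.234 to 1.63) and Klrb1c (7 and 37 UMIs, 0.509, 0.224 to 1.35) were not past 2-fold without the added UMI. Il1r1 had 0 control and 21 knockout UMIs, so it has no fold.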

How the data were processed

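Expression was measured by droplet-based 3′ single-cell RNA-seq in 1 control and 1 knockout library. The deposited matrices hold raw UMI counts per gene and barcode, and the headers name Cell Ranger 8.0.0 as the software. The submitters' processing notes name version 3.1.3 and mm10. No background removal is stated. The control matrix held 13766 barcodes and 173934025 UMIs, the knockout matrix 12251 and 137527647.

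T cells were selected by marker UMIs as described in the report. No doublet caller was run, and the removal of cells with another lineage's markers, natural killer markers not included, stood in for one. Shares carry exact 95% Clopper-Pearson intervals, which cover counting error only, and a count of 0 allows up to 3 counts. Cells are not replicates, so no p-value is given. The statistics were tested on simulated data. Unique windows and sequences come from GENCODE M21 (GRCm38), in which gene identifiers were matched. The tools were python 3.11.15, numpy 2.4.6, scipy 1.17.1, pandas 2.3.3 and matplotlib 3.10.9.

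Named members are the 10 Trbv and 10 Trav segments in most T cells, Trgv and Trdv segments in at least 3 T cells, and the 3 Trbv and 3 Trav segments with the largest share difference each way between libraries and between subsets, of those in at least 10 cells, plus Trav1, Trav11 and Trav11d. Any other segment was picked out after its values were seen. The members and gene lists were chosen with earlier results of these data known.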

Additional observations from a re-analysis of the deposited data

How the results depend on the processing

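Of 82 shares recomputed under alternatives, 73 stayed within the counting interval of the reported share and 9 did not. Of 18 medians of log2 ratios, which have no such interval, 16 moved by less than 1.5-fold and 2 by more, 1 of them with a change of sign. A pseudocount in proportion to library size was added after seeing the data. Detection of any V segment went from 41.4% to 14.8% in the control and from 40.7% to 13.9% in the knockout library with cells thinned to 1000 UMIs, and to 27.8% and 25.2% at 2000 UMIs, as fewer UMIs hold fewer segments. A stricter filter, 1000 genes or more and up to 10% mitochondrial UMIs, gave 43.4% in the knockout library. Merging segments into subgroups, which adds members by construction, took the share of Trbv12-2 from 11.8% to 16.5% for all Trbv12 and that of Trav3-3 from 8.87% to 18.3% for all Trav3 in the knockout library. Cells with a Trgv or Trdv UMI went from 7.24% to 4.07% of knockout T cells when cells with a Trav or Trbv UMI were left out. With CD8 and CD4 called from at least 2 UMIs, Trbv17 stood at 0% of knockout CD4 cells (0 of 47) in place of 1.16%. The median log2 ratio of V segments between knockout and control T cells went from -0.37 over 18 segments to 0.84 over 23 with cells of other-lineage markers kept. The cause was not tested. The median between CD8 and CD4 cells went from 0.37 to 4.21 at a minimum of 50 UMIs, which left 1 segment, Trgv2. Trbv17 and Trbv19 were picked for the CD8 and CD4 alternatives after their values were seen. No paired analysis was possible because each group is 1 pooled library and the labels give no shared replicate. Precision is limited by the 38 control cells with a Trbv UMI and 30 with a Trav UMI, and by 3′ reads that seldom reach the V exon.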
